A study of Homo sapiens with 6 samples.

Results

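The tight junction genes described here are CLDN1, CLDN3, CLDN4, CLDN7, OCLN, TJP1, F11R, CGN and MARVELD2, and all 9 were found by symbol among the 16623 genes of the study. They were chosen by name for their place in the junction, by a rule that uses no measured value, although earlier results of these data were known. RNA sequencing (RNA-seq) was performed in MDA-MB-231, a triple-negative breast cancer cell line that is mesenchymal-like and known as claudin-low. The cells were grown adherent in medium with serum. They received PCI-24781, an inhibitor of histone deacetylases (HDACs), at 100 nM or 200 nM, or the solvent DMSO, for 24 h or 48 h. All 6 libraries came from this one line, each dose and time has 1 library, and both doses at a time share the DMSO library of that time. No test of significance was run, and no difference below is backed by replicates. Levels are given as FPKM, which scales fragments to the length of the transcript and the size of the library, so that levels of different genes can be set side by side per length.

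Tight junctions seal the space between neighbouring epithelial cells close to their apical surface. Claudins form the strands and set which ions pass, the MARVEL proteins occludin and tricellulin join the strands, and JAM-A is an adhesion protein of the immunoglobulin family beside them. On the inner side of the membrane a plaque of scaffold proteins, among them ZO-1 and cingulin, ties the strands to actin and myosin. Carcinoma cells that take on a mesenchymal character usually carry few of these proteins, and transcriptional repressors such as SNAI1 and ZEB1 bind E-box sequences in several of their genes.

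The inferred depth, read from the spacing of low FPKM values, lay between about 15700000 and 18000000 fragments per library, and the number of genes listed at 0 lay between 1130 and 1708. VIM had 1629.38 to 2053.39 FPKM and KRT18 had 89.03 to 110.61 FPKM, while ESR1 and PGR stayed at or below 0.04 FPKM. VIM, KRT18, ESR1 and PGR thus did not go against the labelled line. ERBB2, FOXA1 and GATA3 were also planned to be low. FOXA1 had 1.28 to 1.75 FPKM and GATA3 0.70 to 1.03, but ERBB2 was well above them, at 13.16 to 21.36 FPKM. The epithelial genes CDH1, ESRP1 and OVOL1 had at most 0.39, 0.27 and 0.02 FPKM. EPCAM, another epithelial marker planned to be low, was higher than these, at 2.26 to 4.70 FPKM, and no level of GRHL2 was obtained. The 6 markers of immune and endothelial cells summed to between 72.97 and 128.07 FPKM, of which all but 1.20 to 3.38 was CD68, a lysosomal membrane protein, and CD3E, CDH5 and VWF were at or below 0.04 FPKM. PTPRC had 0.76 to 1.01 FPKM and PECAM1 0.38 to 2.33. The DMSO libraries differed from each other: the library at 48 h had 286 genes higher and 15 lower than the library at 24 h by the 2-fold rule given next, against 24 higher and 7 lower between 200 nM and DMSO at 48 h. For this reason most differences of the members and of the listed genes called are also given against the other DMSO library. Time in culture, an exchange of labels and a property of 1 library cannot be told apart with these 6 libraries, which bears on every difference from DMSO below and on the opposite directions at 100 nM.

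Calls required a difference of 2-fold or more in FPKM + 1 and an FPKM of 1 or more in either library, and differences are given as log2(FPKM + 1), which understates the change of genes with a low level. CLDN1, F11R and CGN were the only members called against the DMSO library of their own time, and 7 of the 9 members reached the minimum in each comparison. CLDN3 and MARVELD2 stayed below 1 FPKM in every library. At 100 nM for 24 h, 3 members were called higher and 0 lower, where 1.35% of 11475 genes were called higher and 0.131% lower. At 200 nM for 24 h the same 3 members were higher and 0 lower, where 4.47% of 11660 genes were higher and 1.48% lower. At 100 nM for 48 h, 0 members were higher and CLDN1 alone was lower, against 0.0608% of 11514 genes higher and 0.408% lower. At 200 nM for 48 h no member was called, with 0 higher and 0 lower, against 0.206% of 11665 genes higher and 0.06% lower.

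Counting differences of any size, the 7 members with a sufficient level lay above DMSO in 7 of 7 cases at both doses at 24 h, where 51.6% of all genes did at 100 nM and 51.2% at 200 nM. At 48 h, 1 of 7 lay above DMSO at 100 nM, where 47.2% of all genes did, and 6 of 7 at 200 nM, where 51% did. The median log2 difference of the 7 members was 0.69 at 100 nM and 0.86 at 200 nM at 24 h, and -0.07 and 0.14 at 48 h, while the median of all genes was 0.01, 0.01, -0.01 and 0.01. CGN reached 1 FPKM at 24 h in the treated libraries only, and with no minimum the median of all 9 members at 24 h was 0.46 at 100 nM and 0.73 at 200 nM, with MARVELD2 the one below DMSO. Between the DMSO libraries, the same 3 members were higher at 48 h than at 24 h and 0 were lower, where 2.49% of 11490 genes were higher and 0.131% lower. CGN passed here through DMSO 48 h alone, and with 1 FPKM required in both libraries 2 members were called in this comparison and 2 at each dose at 24 h. With 1 FPKM required in either library, 6 of 7 members lay higher in DMSO 48 h by any amount, against 49.6% of all genes. Their median was 0.76, against -0.00 for all genes. DMSO 24 h is the reference of the 24 h comparisons and of this last one, and its error enters each of them. In bulk RNA, fewer cells with a transcript and less of it in each cell cannot be told apart.

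**Figure D1:**
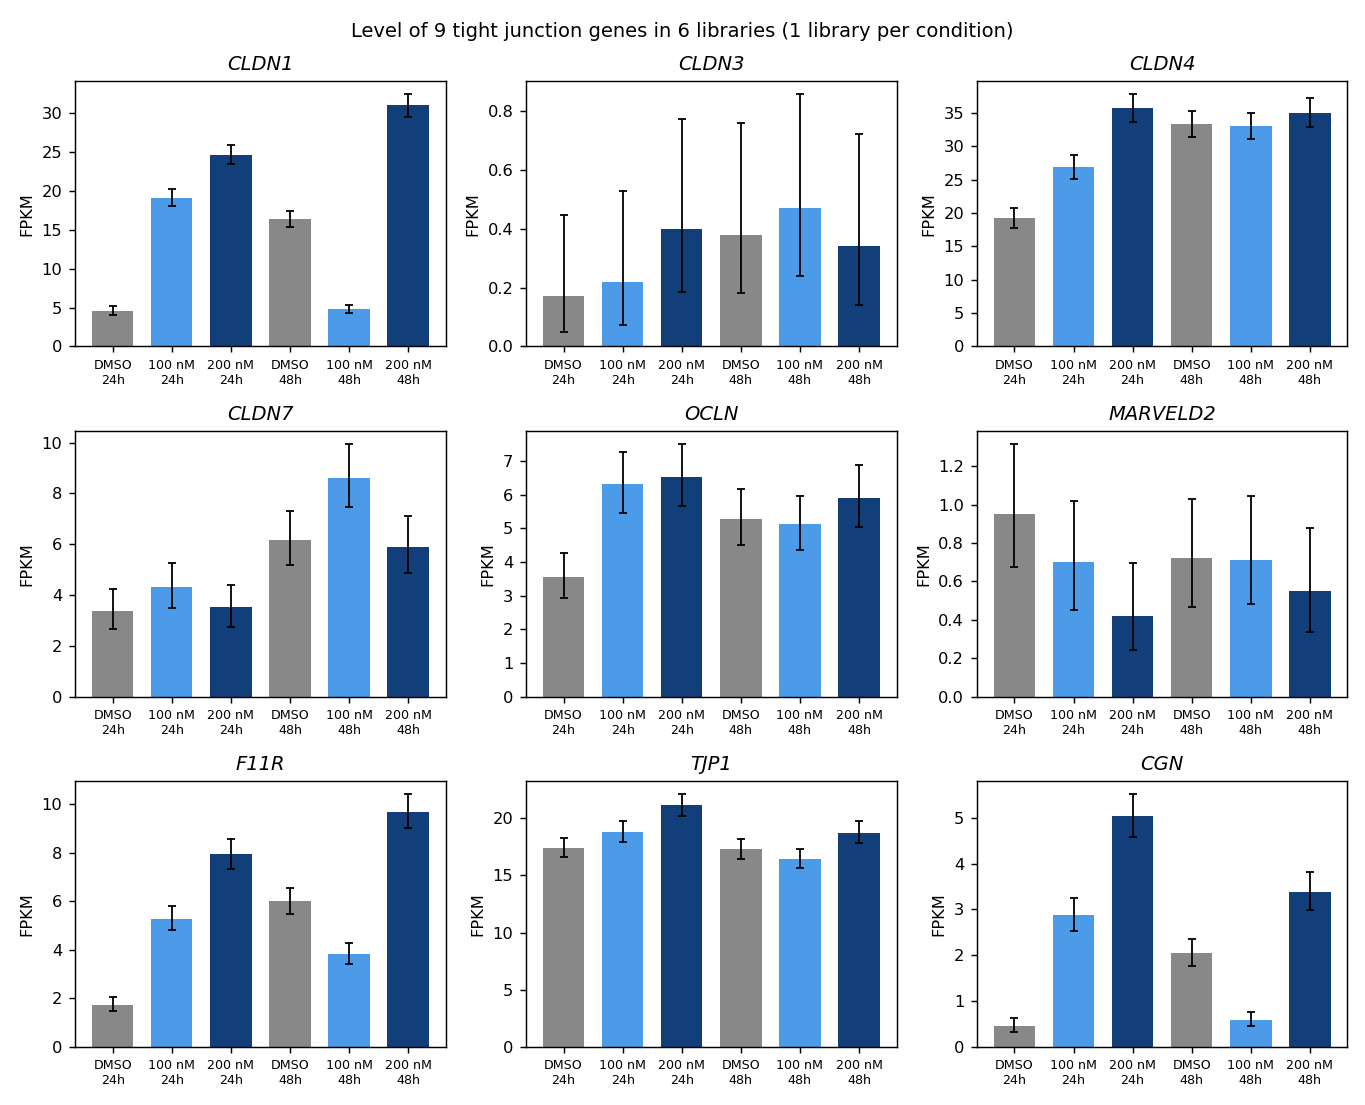
FPKM of each of the 9 tight junction genes (vertical axis, its own scale in each panel) in the 6 libraries (horizontal axis; grey DMSO, light blue 100 nM, dark blue 200 nM), with bars for 1 library each and whiskers for the 95% interval of counting error only. CLDN1, F11R and CGN are lowest in DMSO 24 h and at 100 nM 48 h lie below DMSO 48 h, CLDN7 is higher in all libraries at 48 h than in any at 24 h, and TJP1 stays between 16.47 and 21.16 FPKM. For CLDN7 the whiskers of 100 nM 24 h overlap those of DMSO 48 h and 200 nM 48 h.

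CLDN1 (NCBI Gene ID 9076, hg19 chromosome 3 from 190023490 to 190040235, minus strand) encodes claudin-1, a strand protein needed for the epidermal barrier. At 24 h its level was 4.60 FPKM in DMSO, 19.16 at 100 nM and 24.67 at 200 nM. The 48 h levels were 16.36 FPKM in DMSO, 4.81 at 100 nM and 31.01 at 200 nM. The order therefore was by dose at 24 h, whereas at 48 h the 100 nM library lay below DMSO and the 200 nM library above it. At 24 h, CLDN1 rose by a log2 difference of 1.85 at 100 nM and of 2.20 at 200 nM, which are ratios of 4.17 (95% interval 3.66 to 4.76) and 5.36 (4.73 to 6.11). These intervals are exact binomial and cover counting error only, from fragments inferred from the depth.

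At 100 nM for 48 h, CLDN1 fell by 1.58 on the log2 scale, a ratio to DMSO of 0.294 (0.257 to 0.334). At 200 nM for 48 h it was 1.90 times DMSO (1.75 to 2.05), a log2 difference of 0.88 that did not reach the 2-fold rule. Its level at 100 nM 48 h lay next to that in DMSO 24 h, with a ratio of 1.05 (0.886 to 1.23), and these were the only neighbours in the order of its 6 levels whose counting intervals overlapped. Each difference of CLDN1 depended on the DMSO library used: against DMSO 48 h the 24 h libraries at 100 nM and 200 nM differed by log2 values of 0.22 and 0.56, and against DMSO 24 h the 48 h libraries differed by 0.05 and 2.52. CD68, the marker named above, was highest at 100 nM 48 h (126.20 FPKM) and in DMSO 24 h (118.95), the libraries in which CLDN1 and CGN were lowest, and lay between 69.59 and 87.88 FPKM in the other 4. Its part in the differences of these members was not tested.

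CLDN4 (NCBI Gene ID 1364, hg19 chromosome 7 from 73245193 to 73247023, plus strand), a strand protein and a receptor of a clostridial enterotoxin, was the most abundant member per length. At 24 h it had 19.27 FPKM in DMSO, 26.94 at 100 nM and 35.77 at 200 nM. The 48 h levels were 33.33, 33.01 and 35.09 FPKM in the same order. Only the DMSO 24 h and 100 nM 24 h libraries stood below the others by more than counting error, and the remaining 4 overlapped. The log2 differences were 0.46 and 0.86 at 24 h, below the 2-fold rule. Against the other DMSO library, the 24 h differences were -0.30 and 0.10, and the 48 h differences 0.75 and 0.83, so both the differences at 24 h and their near absence at 48 h depended on the reference. Against DMSO 48 h, the ratios at 48 h were 0.990 (0.910 to 1.08) at 100 nM and 1.05 (0.966 to 1.15) at 200 nM.

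CLDN7 (NCBI Gene ID 1366, hg19 chromosome 17 from 7163222 to 7166512, minus strand) encodes a claudin that also sits at the lateral membrane, where it binds EpCAM. Its level was 3.38, 4.32 and 3.52 FPKM in DMSO, 100 nM and 200 nM at 24 h, and 6.15, 8.62 and 5.89 FPKM at 48 h. All libraries at 48 h lay above all libraries at 24 h, and no order by dose was seen at either time. The counting interval at 100 nM 24 h (3.47 to 5.28) overlapped those of DMSO 48 h (5.17 to 7.30) and 200 nM 48 h (4.88 to 7.10). These intervals use the shortest transcript, which widens them. The log2 differences from DMSO of the same time were between -0.05 and 0.43, none of them called, and those of the 24 h libraries from DMSO 48 h were -0.43 and -0.66. The 100 nM 48 h library was the highest, at 1.40 times DMSO 48 h (1.12 to 1.76), and against DMSO 24 h it was called, with a log2 difference of 1.14, beside 0.65 at 200 nM 48 h. There 1 of 6 members with a sufficient level, CLDN7, was called higher, against 1.62% of 11367 genes. The gene overlaps ELP5 on the opposite strand by 38 bases, and since no source states that strand was used in counting, reads there cannot be told apart.

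CLDN3 (NCBI Gene ID 1365, hg19 chromosome 7 from 73183327 to 73184600, minus strand), a close relative of CLDN4 that binds the same toxin, was barely detected. It had 0.17, 0.22 and 0.40 FPKM at 24 h and 0.38, 0.47 and 0.34 FPKM at 48 h in DMSO, 100 nM and 200 nM. These values rest on about 4 to 11 fragments each, and all counting intervals overlapped. A ratio of 2.35 at 200 nM 24 h had an interval of 0.650 to 10.3, so no difference was detectable at this depth. CLDN3 and CLDN4 lie 60593 bases apart, and per length CLDN4 was at least 19.27 FPKM in the libraries in which CLDN3 was at most 0.47.

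OCLN (NCBI Gene ID 100506658, hg19 chromosome 5 from 68788119 to 68853931, plus strand) encodes occludin, the MARVEL protein of the strands. Its level at 24 h was 3.55 FPKM in DMSO, 6.32 with 100 nM and 6.53 with 200 nM. The values at 48 h were 5.29 FPKM in DMSO, 5.12 at 100 nM and 5.92 at 200 nM. Its counting intervals use the shortest transcript, which widens them. On these intervals, only the DMSO 24 h library stood apart by more than counting error, below 5 libraries that overlapped each other. The log2 differences of 0.69 and 0.73 at 24 h were not called, and those at 48 h were -0.04 and 0.14. Against the other DMSO library, the 24 h differences were 0.22 and 0.26, and the 48 h differences 0.43 and 0.60, so the time with the larger difference turned with the reference. RefSeq lists a pseudogene copy of this gene, OCLNP1, so its values are uncertain to the extent that reads were shared with it.

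MARVELD2 (NCBI Gene ID 153562, hg19 chromosome 5 from 68710939 to 68737890, plus strand) encodes tricellulin, which seals the points where corners of cells meet. It had 0.95, 0.70 and 0.42 FPKM at 24 h and 0.72, 0.71 and 0.55 FPKM at 48 h in DMSO, 100 nM and 200 nM. It was the only member whose level was highest in DMSO 24 h. At 200 nM 24 h the ratio to DMSO was 0.442 (0.232 to 0.824), from about 16 and 37 fragments, and MARVELD2 stayed below the minimum FPKM for a call. Against DMSO 48 h the difference at 200 nM 24 h was -0.28 in place of -0.46. OCLN and MARVELD2 are 50229 bases apart on the same strand, and their levels at 24 h were ordered in opposite directions.

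F11R (NCBI Gene ID 50848, hg19 chromosome 1 from 160965001 to 160991133, minus strand) encodes JAM-A, which helps to bring polarity proteins to new contacts. At 24 h its level was 1.74 FPKM in DMSO, 5.28 at 100 nM and 7.93 at 200 nM. After 48 h it was 6.0 FPKM in DMSO, 3.83 at 100 nM and 9.69 at 200 nM. As with CLDN1, the lowest library was DMSO 24 h and the highest 200 nM 48 h, and the 100 nM library lay above DMSO at 24 h and below it at 48 h. At 24 h, F11R rose by log2 differences of 1.20 and 1.70, with ratios of 3.03 (2.52 to 3.68) and 4.56 (3.82 to 5.49). The differences at 48 h, -0.54 and 0.61, were not called. Against DMSO 48 h, the 24 h differences were -0.16 and 0.35, so the direction at 100 nM turned with the reference. Against DMSO 24 h, the 48 h differences were 0.82 and 1.96.

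CGN (NCBI Gene ID 57530, hg19 chromosome 1 from 151483862 to 151511168, plus strand) encodes cingulin, a plaque protein that binds ZO-1 and myosin. In DMSO 24 h it had 0.46 FPKM, and after PCI-24781 for the same time 2.88 FPKM at the low and 5.04 FPKM at the high dose. The level at 48 h was 2.04 FPKM in DMSO, 0.59 at 100 nM and 3.39 at 200 nM. CGN had the widest ratio between its highest and lowest library of all members, 10.96, with the lowest, DMSO 24 h, resting on about 42 fragments. It rose by 1.41 and 2.05 on the log2 scale at 24 h, ratios of 6.26 (4.52 to 8.93) and 10.96 (8.0 to 15.5). At 48 h it was lower at 100 nM than in DMSO by a log2 difference of -0.94, a ratio of 0.289 (0.209 to 0.393), and 0.53 higher at 200 nM.

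The difference of CGN at 100 nM 48 h was called with a pseudocount of 0.1 (-1.63) or after rescaling to TPM (-1.27) but not with the pseudocount of 1. Its levels in DMSO 24 h and at 100 nM 48 h had overlapping counting intervals, with a ratio of 1.28 (0.843 to 1.97). Against DMSO 48 h the 24 h differences were 0.35 and 0.99, neither of them called.

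TJP1 (NCBI Gene ID 7082, hg19 chromosome 15 from 29991571 to 30261002, minus strand) encodes ZO-1, the scaffold that holds claudins through its PDZ domains. Its level was 17.44, 18.82 and 21.16 FPKM in DMSO, 100 nM and 200 nM at 24 h, and 17.29, 16.47 and 18.75 FPKM at 48 h. It had the narrowest range of the members, with a ratio of 1.28 between the highest and the lowest library, and its log2 differences lay between -0.07 and 0.27. The 200 nM 24 h library stood above the others by more than counting error. Against the other DMSO library the differences lay between -0.08 and 0.28. Of the plaque proteins among the members, TJP1 was abundant and nearly level, and CGN was low and varied more.

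**Figure D2:**
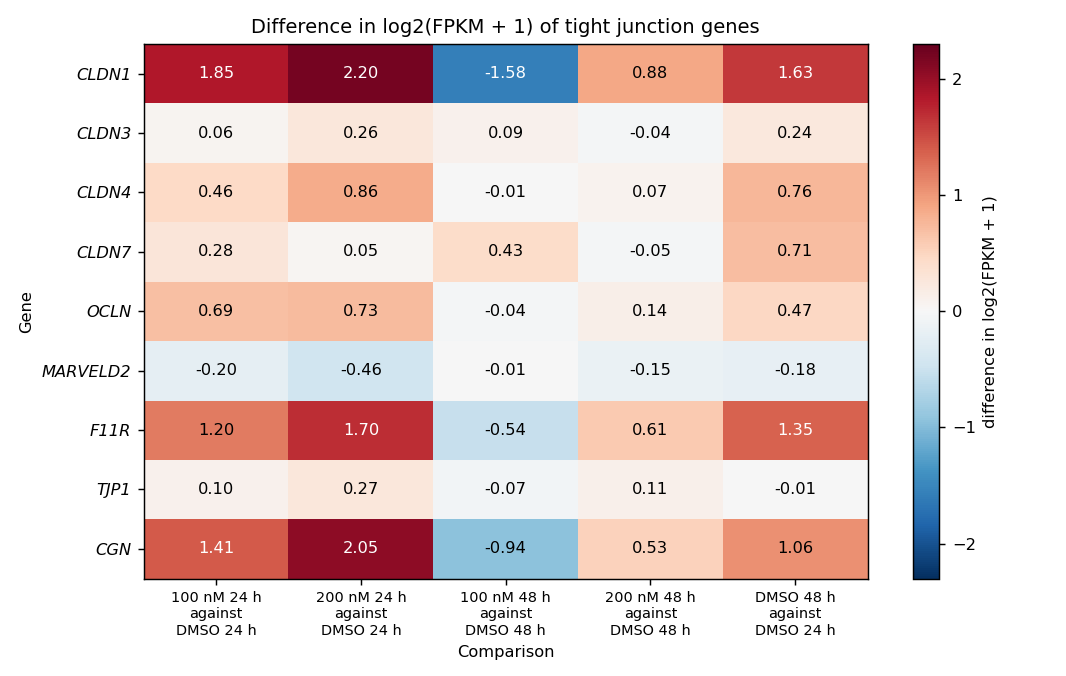
Difference in log2(FPKM + 1) of each tight junction gene (vertical axis) in 5 comparisons of libraries (horizontal axis), with red for higher and blue for lower than the reference library. CLDN1, F11R and CGN have the largest values in both 24 h columns and in the DMSO column, with CLDN1 at 1.85, 2.20 and 1.63, and negative values at 100 nM 48 h, with CLDN1 at -1.58.

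When the doses were compared directly, no member was called between 200 nM and 100 nM at 24 h, where 0.343% of 11651 genes were called higher. The ratio of 200 nM to 100 nM at 24 h was 1.29 (1.19 to 1.39) for CLDN1, 1.5 (1.33 to 1.70) for F11R and 1.75 (1.5 to 2.05) for CGN. At 48 h, CLDN1, F11R and CGN were called higher at 200 nM than at 100 nM, 3 of 7 members where 1.71% of 11694 genes were. CGN entered this count through the 200 nM library alone, since it had 0.59 FPKM at 100 nM. There the ratios were 6.45 (5.71 to 7.32), 2.53 (2.22 to 2.89) and 5.75 (4.28 to 7.86). CLDN7 differed the other way at 48 h, with a ratio of 0.683 (0.538 to 0.868), and CLDN4 had a ratio of 1.06 (0.975 to 1.16).

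The choice of DMSO library decided the calls of the members. With DMSO 48 h as the reference, 0 of 7 members were called higher at 100 nM 24 h, where 0.0606% of 11556 genes were, and 0 of 7 at 200 nM 24 h, where 0.863% of 11710 genes were. With DMSO 24 h as the reference, CLDN1, F11R and CGN were called higher at 200 nM 48 h by 2.52, 1.96 and 1.59 on the log2 scale, where 4.7% of 11669 genes were. CGN, at 0.46 FPKM in DMSO 24 h, entered this count through the 200 nM library alone. CLDN1 and CGN at 100 nM 48 h then lay 0.05 and 0.12 from DMSO 24 h. For these 3 members, both libraries at 200 nM lay above both DMSO libraries, whereas the 100 nM library at 48 h lay above DMSO 24 h and below DMSO 48 h. The labels give no batch.

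**Figure D3:**
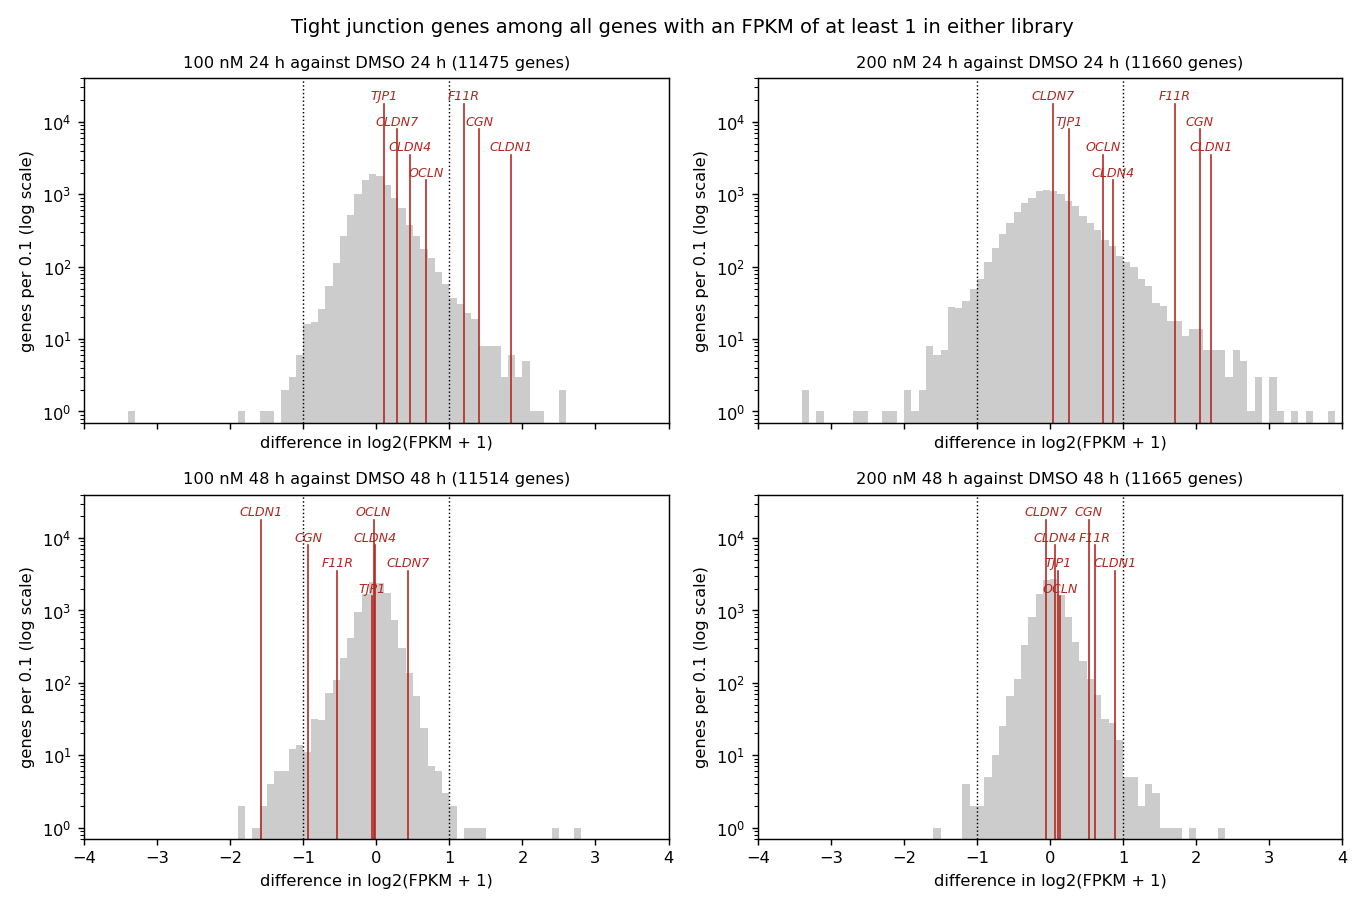
Number of genes (vertical axis, log scale) per step of 0.1 in the difference in log2(FPKM + 1) (horizontal axis) in the 4 comparisons with DMSO of the same time, with red lines for the 7 tight junction genes that reached 1 FPKM and dotted lines at 2-fold. At 24 h all 7 lie to the right of 0, at 100 nM 48 h CLDN1, CGN and F11R lie to the left at -1.58, -0.94 and -0.54, and at 200 nM 48 h none reaches the 2-fold line.

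Promoter windows from RefSeq (GRCh38.p14, 250 bases before to 50 after each start) were read for the members, and 8 of the 9 had a window, 13 windows in all. F11R had none in the table used. The windows of 4 members are printed 5′ to 3′ on the strand of the gene, because CGN had the levels most like those of CLDN1 among the members, CLDN4 and CLDN7 had other levels at 48 h, and the windows differ in their motifs. Capitals mark matches on either strand of CAGGTG, the E-box bound by SNAI and ZEB proteins, GGGCGG, a box bound by SP1, and TGACTCA, the AP-1 site.
CLDN1, chr3:190322397-190322696, minus strand: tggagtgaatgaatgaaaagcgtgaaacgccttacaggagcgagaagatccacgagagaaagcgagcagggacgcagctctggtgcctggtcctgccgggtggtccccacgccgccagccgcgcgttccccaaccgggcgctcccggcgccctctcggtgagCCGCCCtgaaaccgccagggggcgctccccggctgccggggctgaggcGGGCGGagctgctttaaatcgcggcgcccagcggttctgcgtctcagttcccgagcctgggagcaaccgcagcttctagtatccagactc
CGN, chr1:151511137-151511436, plus strand: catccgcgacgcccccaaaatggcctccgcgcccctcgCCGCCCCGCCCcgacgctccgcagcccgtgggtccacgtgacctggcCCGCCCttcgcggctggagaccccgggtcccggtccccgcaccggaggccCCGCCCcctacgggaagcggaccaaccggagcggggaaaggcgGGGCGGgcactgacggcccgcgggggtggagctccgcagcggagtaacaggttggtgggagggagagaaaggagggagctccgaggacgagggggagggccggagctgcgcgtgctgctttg
CLDN4, chr7:73830746-73831045, plus strand: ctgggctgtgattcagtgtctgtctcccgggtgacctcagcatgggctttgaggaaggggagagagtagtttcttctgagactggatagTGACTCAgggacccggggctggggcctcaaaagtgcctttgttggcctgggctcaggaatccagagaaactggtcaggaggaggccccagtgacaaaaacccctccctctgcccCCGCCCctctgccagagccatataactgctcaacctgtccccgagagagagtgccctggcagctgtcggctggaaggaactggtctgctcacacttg
CLDN7, chr17:7262429-7262728, minus strand: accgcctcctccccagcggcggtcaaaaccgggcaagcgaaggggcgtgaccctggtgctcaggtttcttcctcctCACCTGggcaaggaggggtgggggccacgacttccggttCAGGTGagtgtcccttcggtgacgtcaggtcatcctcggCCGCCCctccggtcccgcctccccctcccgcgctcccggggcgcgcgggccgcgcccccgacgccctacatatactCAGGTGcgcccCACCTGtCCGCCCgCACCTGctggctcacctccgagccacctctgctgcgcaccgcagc

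The CLDN1 window held 0 E-boxes and 2 SP1 boxes and the CGN window 0 E-boxes and 5 SP1 boxes, of which a pair shares 1 base. The CLDN4 window held the only AP-1 site among the windows of the members and 1 SP1 box. The CLDN7 window printed held 5 E-boxes and 2 SP1 boxes, and the other CLDN7 window, not printed, held 0 of each and had a GC content of 60%. Of the 8 members with a window, 4 had an E-box in at least 1 window (CLDN3, CLDN7, OCLN and TJP1) and 4 had none. An E-box was present in 5 of the 13 windows, an SP1 box in 10 and an AP-1 site in 1, where 20.6%, 45% and 4.95% of all 35116 windows held one. GC content was 67% for CLDN1, 75.3% for CGN, 59% for CLDN4 and 71.7% for the printed window of CLDN7, against a median of 58.7% over all windows. A match of these letters is a description of the window and says nothing of binding, and the OCLN windows share 57 bases.

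Of 65 other listed genes of tight junctions, cell polarity and junction regulation, 59 were in the files. Between 36 and 40 of them reached 1 FPKM in a comparison. At 24 h, 2 were called higher with 100 nM and 4 with 200 nM, and at 48 h 0 and 1, with 0 lower in each. Of all genes, 1.35%, 4.47%, 0.0608% and 0.206% were higher in these comparisons and 0.131%, 1.48%, 0.408% and 0.06% lower. Between the DMSO libraries 3 of 37 were higher at 48 h, LSR, CXADR and TJP3, by log2 differences of 1.17, 1.06 and 1.03. There 0 were lower, against 2.49% of all genes higher and 0.131% lower. Medians of the listed genes against DMSO of the same time were 0.15, 0.31, 0.02 and 0.11 on the log2 scale, and 0.04 between the DMSO libraries. Among the other claudins, 14 of 19 were in the files, 3 reached 1 FPKM (CLDN12, CLDN15 and CLDN23) and 0 were called. CLDN12, an unusual claudin without the common PDZ-binding end, was the most abundant, at 14.08 to 17.66 FPKM.

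LSR, CXADR, TJP3 and MAGI1, the genes of these lists that were called, were all lowest in DMSO 24 h and second lowest at 100 nM 48 h, as CLDN1, F11R and CGN were. LSR, which encodes angulin-1, the protein that brings tricellulin to corners of cells, had 2.08, 6.11 and 10.49 FPKM at 24 h and 5.91, 3.28 and 10.47 FPKM at 48 h in DMSO, 100 nM and 200 nM. It rose by 1.21 and 1.90 on the log2 scale at 24 h, and differed by -0.69 and 0.73 at 48 h. CXADR, the coxsackievirus and adenovirus receptor of the JAM-related family, had 0.75, 2.97 and 4.48 FPKM at 24 h and 2.65, 1.58 and 4.92 FPKM at 48 h. Both lay above DMSO at 100 nM 24 h and below it at 100 nM 48 h. In comparisons with DMSO 24 h, where CXADR had 0.75 FPKM, it reached the minimum through the other library alone. Against the other DMSO library, LSR at 24 h differed by 0.04 and 0.73 and CXADR by 0.12 and 0.59, none of them called, and at 48 h LSR differed by 0.47 and 1.90 and CXADR by 0.56 and 1.76, both called at 200 nM. ESAM, another protein of that family, was far more abundant, at 125.68 to 176.47 FPKM, and was not called.

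Among the other plaque proteins, 14 of 14 were in the files and TJP3 and MAGI1 were called. TJP3, which encodes ZO-3, had 0.09, 0.52 and 2.22 FPKM at 24 h and 1.23, 0.39 and 3.80 FPKM at 48 h, and rose by 1.56 at 200 nM 24 h and by 1.11 at 200 nM 48 h on the log2 scale. MAGI1, a scaffold with several PDZ domains, had 4.38, 8.65 and 10.50 FPKM at 24 h and 7.73, 6.37 and 10.65 FPKM at 48 h, and rose by 1.10 at 200 nM 24 h. Against DMSO 48 h, TJP3 at 200 nM 24 h differed by 0.53 and MAGI1 by 0.40, neither called, and against DMSO 24 h they were called at 200 nM 48 h, with 2.14 and 1.11. TJP3 had 0.09 FPKM in DMSO 24 h, so its calls against that library passed the minimum through the other library alone. YBX3, a ZO-1-binding protein, was the most abundant plaque gene, with 79.45 to 96.89 FPKM and no call. The scaffolds thus ranged from TJP1 and YBX3, which were nearly level, to CGN and TJP3, which were low in DMSO 24 h.

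Of the 13 polarity genes, all were in the files and 0 were called, with DLG1 the most abundant at 68.13 to 91.36 FPKM. Of the 10 junction regulators 9 were in the files and 0 were called, with RAB13, a GTPase of junction assembly, the most abundant at 69.70 to 111.71 FPKM. EPCAM, the partner of CLDN7, had 4.70, 2.81 and 2.26 FPKM at 24 h and 2.99, 3.56 and 2.35 FPKM at 48 h. Of the 5 repressors of claudin genes, 5 were in the files and 0 were called, and ZEB1 was the most abundant at 50.02 to 61.73 FPKM. The largest differences of these repressors from DMSO of the same time were 0.99 for SNAI1 and -0.69 for ZEB2, both at 200 nM 24 h. Both are smaller in size against DMSO 48 h, where SNAI1 had 0.88 and ZEB2 1.80 FPKM, beside 1.57 and 1.22 at 200 nM 24 h. These genes were named after their values were seen. Of 10 regulators of epithelial character 8 were in the files, and 1, ELF3, was called, only between the DMSO libraries. ELF3 was the only gene of this list with a sufficient level there, reached through DMSO 48 h alone, and 2.49% of 11490 genes were called higher. ELF3 encodes an epithelial ETS factor and had 0.35, 0.40 and 0.58 FPKM at 24 h and 1.81, 2.36 and 2.26 FPKM at 48 h, higher in all libraries at 48 h as CLDN7 was.

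**Figure D4:**
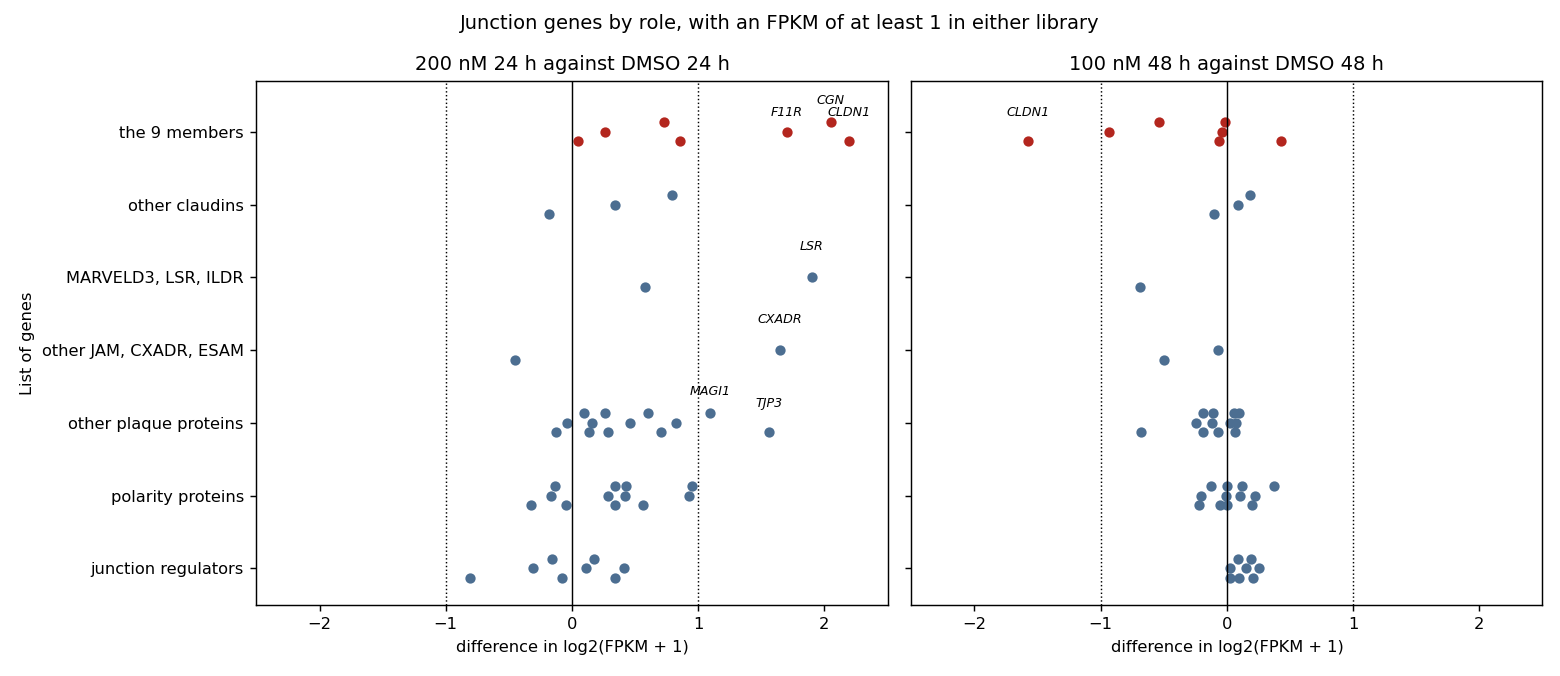
Difference in log2(FPKM + 1) (horizontal axis) of junction genes that reached 1 FPKM, 1 point per gene, by list (vertical axis; small vertical offsets only separate points), with dotted lines at 2-fold and members in red. At 200 nM 24 h (left) CLDN1, CGN and F11R lie at 2.20, 2.05 and 1.70 and LSR, CXADR, TJP3 and MAGI1 are the other genes past 2-fold, and at 100 nM 48 h (right) CLDN1, at -1.58, is the only one.

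The pattern of CLDN1 over the 6 libraries was compared with that of other genes as a description. Among 393 genes with at least 1 FPKM in every library and a sufficient range, EFEMP1, CDA, HPSE, F2RL2 and CCN2 were most like it, with a Pearson r of log2(FPKM + 1) of 0.994, 0.991, 0.987, 0.985 and 0.981. CDA, for example, which encodes cytidine deaminase, had 15.94, 67.68 and 67.73 FPKM at 24 h and 54.74, 18.85 and 83.94 FPKM at 48 h. Within the members, r with CLDN1 was 0.958 for CGN, 0.916 for F11R, 0.811 for OCLN, 0.730 for TJP1, 0.604 for CLDN4, 0.134 for CLDN3, -0.168 for CLDN7 and -0.766 for MARVELD2. For LSR and CXADR it was 0.962 and 0.955. These values rest on the same 6 libraries for every gene, with DMSO 24 h and 100 nM 48 h the low ones, so the genes are not independent.

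None of the nearest genes within 100 kb of each member was called in the 5 comparisons, and TJP1 had no neighbour in this range. RAD17, 311 bases from MARVELD2, had 22.13 to 26.83 FPKM, and GTF2H2C beside OCLN had 7.53 to 11.95 FPKM. METTL27 beside CLDN4 had 0.91 to 1.65 FPKM and SLC2A4 beside CLDN7 had 0.25 to 1.18 FPKM. TUFT1, 1613 bases from CGN, had 9.81, 12.80 and 19.09 FPKM at 24 h and 10.63, 9.40 and 12.59 FPKM at 48 h, with log2 differences of 0.35, 0.89, -0.16 and 0.22, none of them called. CLDN16, 65426 bases from CLDN1, had at most 0.30 FPKM, and POGZ, on the other side of CGN, had 16.63 to 19.36 FPKM. ABHD11 beside CLDN3, ELP5 beside CLDN7 and TSTD1 beside F11R had ratios of 1.16, 1.47 and 1.45 between the highest and lowest library.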

How the data were processed

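RNA of MDA-MB-231 cells under 6 conditions, 1 library each, was sequenced by a company after mRNA enrichment or rRNA depletion. The authors deposited FPKM values for each gene, given to 2 decimals. The submitters' processing notes name Bowtie2, RSEM and hg19, with no version or settings. No counts were used, since the files hold FPKM alone, and no column of the authors' own comparisons was present. The RefSeq gene table of GRCh38.p14 gave a symbol for 16585 of 16623 NCBI Gene IDs.

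The difference in log2(FPKM + 1) was computed between libraries, and a gene was called at 2-fold or more where either library reached 1 FPKM. The members and the gene lists were chosen with earlier results of these data known. Named genes were all members, listed genes called in any of 5 comparisons, the most abundant gene of each list, the 5 genes most like the member with the widest range, and the nearest genes within 100 kb. Markers of the line and of other cell types were also planned, EPCAM and CD68 among them. Setting EPCAM beside CLDN7 and CD68 beside CLDN1 was decided after their values were seen. Depth was inferred from low FPKM values of 271 to 322 genes per library that have 1 transcript of 500 to 1500 bases in GENCODE release 29. For members with several transcripts the shortest was used, which widens their intervals. At this depth 3 fragments correspond to 0.131 to 0.15 FPKM for CLDN3 and 0.136 to 0.156 FPKM for CLDN7, the members with the shortest transcripts used. Intervals at 95% are exact (Poisson for levels, binomial for ratios), rest on inferred fragments and cover counting error only.

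Alternative settings were smaller pseudocounts (0.1 and 0.01), all genes unfiltered, 1 FPKM required in both libraries, TPM, median-of-ratios factors, a 1.5-fold threshold, and the mean of the DMSO libraries or the other DMSO library as reference. Python 3.11.15, numpy 2.4.6, pandas 2.3.3, scipy 1.17.1 and matplotlib 3.10.9 were used.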

Additional observations from a re-analysis of the deposited data

Results flagged for a closer look

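At 100 nM, the difference from DMSO had opposite directions at 24 h and 48 h in 5 genes of the junction lists that were called at this dose at 1 or both times. The log2 difference at 24 h minus that at 48 h was 3.43 for CLDN1 (1.85 and -1.58), 2.35 for CGN (1.41 and -0.94), 1.90 for LSR (1.21 and -0.69), 1.73 for F11R (1.20 and -0.54) and 1.68 for CXADR (1.18 and -0.50). With 1 library per condition the difference between the times was not tested. Against DMSO 24 h, the library at 100 nM 48 h differed by 0.05 for CLDN1, 0.12 for CGN, 0.47 for LSR, 0.82 for F11R and 0.56 for CXADR, so it lay closer to DMSO 24 h than to DMSO 48 h for CLDN1, CGN and LSR and closer to DMSO 48 h for F11R and CXADR. Over all genes it had 54 calls against DMSO 48 h and 213 against DMSO 24 h. An exchange of labels cannot be told apart from a difference between the times.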

How the results depend on the processing

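A median of the members counts as moved past 0.1 on the log2 scale and a count past 1.5 times. The reference library mattered most. With the other DMSO library as reference, at 100 nM 24 h 0 members were called (4 lay higher, median 0.12), at 200 nM 24 h also 0 (median 0.28) and at 200 nM 48 h 3 (median 0.83), and at 100 nM 48 h 5 lay higher with a median of 0.59. F11R at 100 nM 24 h then turned to -0.16 and CLDN1 at 100 nM 48 h to 0.0531. With the mean of the DMSO libraries, 100 nM called 0 members at 24 h (median 0.37) and 0 at 48 h (3 lay higher), 200 nM called 2 at 48 h (median 0.40), and the median at 200 nM 24 h was 0.47. A pseudocount of 0.1 gave a median of 0.81 at 100 nM 24 h and 2 called members at 100 nM 48 h, and one of 0.01 gave 0.83, 2 called members and a median of 0.86 between the DMSO libraries. Without a filter the 24 h medians were 0.46 at 100 nM and 0.73 at 200 nM, and 2 members lay higher at 100 nM 48 h. When both libraries had to reach 1 FPKM, the median at 100 nM 24 h was 0.57, since CGN then drops out. TPM gave 2 called members at 100 nM 48 h with 2 higher, and median-of-ratios factors gave 2 higher there. A 1.5-fold threshold called 5 members at 200 nM 24 h, 2 at 100 nM 48 h, 2 at 200 nM 48 h and 5 between the DMSO libraries. No share of all genes is given for this threshold, the pseudocounts, TPM or the mean of the DMSO libraries. Counts of called members under these settings are therefore not set against all genes. The cause of these shifts was not tested beyond what each setting changes by its construction. No rescaling moved the median of all genes by more than 0.1.

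No paired analysis was possible because the groups compared share a single replicate number. A model with additive dose and time, which would leave 2 residual degrees of freedom, was not run, and neither was a leave-one-out. The depth limits the low members most: CLDN3 rests on about 4 to 11 fragments and MARVELD2 on about 16 to 37, which leaves all but large differences undetectable. OCLN, TJP1, CLDN7 and MARVELD2 have several transcripts, and their FPKM depends on how the authors assigned fragments among them. The FPKM values keep no error of that assignment, and culture-to-culture variation is unknown.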

Other observations

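ESRP1, a splicing regulator of epithelial cells that was named here after its values were seen, had 0.02, 0.26 and 0.27 FPKM at 24 h and 0.23, 0.02 and 0.25 FPKM at 48 h in DMSO, 100 nM and 200 nM. Its low libraries were DMSO 24 h and 100 nM 48 h, as for CLDN1 and CGN, and its level stayed below the minimum for a call. SNAI1, a repressor of claudin genes also named after its values were seen, had 0.29, 0.60 and 1.57 FPKM at 24 h and 0.88, 0.68 and 1.99 FPKM at 48 h, in the order of libraries seen for F11R at each time, and was not called. Its log2 difference at 200 nM 24 h was 0.99, just below the 2-fold rule, and is smaller against DMSO 48 h, where SNAI1 had 0.88 FPKM. PARD6B, a polarity protein chosen in the same way, had 1.05, 1.87 and 2.97 FPKM at 24 h and 2.01, 1.58 and 2.32 FPKM at 48 h, with a log2 difference of 0.95 at 200 nM 24 h. That difference too is smaller against DMSO 48 h, where PARD6B had 2.01 FPKM.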
